A study of Canis lupus familiaris with 45 samples.

Results

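The first 4 weeks of free feeding were examined in subcutaneous fat of 5 intact female beagles, by setting each dog's week-4 array beside its own week-0 array. These were 10 of the 45 arrays measured, chosen as the ad libitum arrays of weeks 4 and 0 and paired by the animal id in the labels. The ad libitum dogs (dogs 2, 5, 6, 7 and 8, n = 5) ate without restriction from week 0 on. The control dogs (dogs 1, 3, 4 and 9, n = 4) were given only as much food as kept their body weight steady. All 9 dogs were 4 years old, were randomised to their feeding group, ate the same Purina performance diet and were biopsied after an overnight fast at weeks 0, 4, 8, 12 and 24. Week 0 preceded free feeding, and week 4 is the earliest sample taken during it. RNA was measured on canine 3' expression arrays, on which a probe set is a group of short probes to 1 transcript. Of 42924 probe sets that are not array controls, 22690 (52.9%) had a log2 value above 4 on at least 4 of the 45 arrays and were tested. Values near 2 are the background of the array, and no fold is given for a gene whose mean in either group lies below 4.

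White fat stores surplus energy as triglyceride in adipocytes, which take up fatty acids from the blood or make them from glucose, and release them again by lipolysis in the fasted state. As adipocytes enlarge they secrete more leptin, the hormone that reports the size of the fat store to the brain. They also rebuild the basement membrane of collagen IV, laminin and nidogen that wraps each cell. Insulin, which rises with food intake, favours lipid synthesis and restrains both lipolysis and the use of fatty acids as fuel.

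The arrays carried the adipocyte markers they should. The mean over 15 adipocyte markers lay between 11.93 and 12.72 (median 12.38) at week 4, against 11.67 to 12.75 (median 11.94) at week 0, and no marker was below 4 on all 10 arrays. Skeletal muscle transcripts set some arrays apart. The mean over 30 muscle genes was 3.90 to 4.38 at week 4 in all 5 dogs, whereas at week 0 it was 10.1 in dog 5, 12.9 in dog 7 and 7.70 in dog 8, against 3.82 in dog 2 and 3.92 in dog 6. Muscle genes therefore stood lower at week 4 (list median -2.78, 26 of 27 measured genes negative), although limma called 0 of them. The actin signal at the 3' end less that at the 5' end (log2), which grows as RNA is degraded, was 1.75 ± 0.237 at week 4 and 2.85 ± 1.00 at week 0 (SD, n = 5), and was lower at week 4 in 4 of 5 dogs (2-sided exact permutation test over the dogs, p = 0.125; 5 dogs allow no p below 0.0625; adjusted over 3 measures, 0.25). The same measure for GAPDH went the other way, with 2.75 ± 0.17 at week 4 and 2.44 ± 0.383 at week 0 (SD, n = 5). It was higher at week 4 in 3 of 5 dogs (same permutation test, p = 0.25), so the 2 measures of RNA quality differed in direction. The mean over fibroblast and preadipocyte markers was 11.07 to 11.61 at week 4 and 10.56 to 11.48 at week 0. Markers of T and NK cells lay at 3.28 to 3.91 at week 4 and 3.28 to 3.68 at week 0, with CD3E below 4 on all 10 arrays. In whole tissue, more cells of a type and more RNA per cell cannot be told apart.

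**Figure D1:**
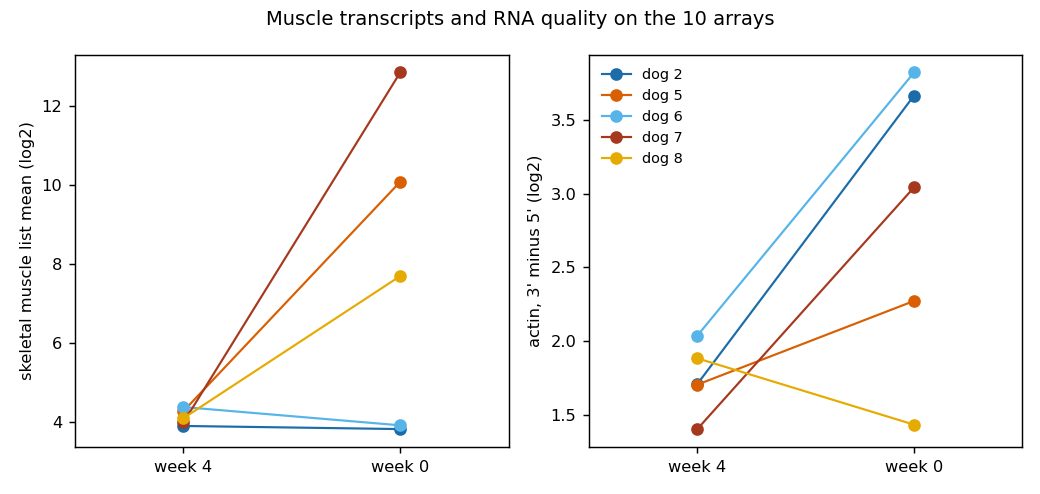
Mean of the skeletal muscle genes (left, log2) and 3' minus 5' value of actin (right, log2) for each ad libitum dog at week 4 and week 0; each line joins the arrays of 1 dog. At week 4 the muscle mean is at most 4.38 in every dog, whereas at week 0 it is 12.9, 10.1 and 7.70 in dogs 7, 5 and 8.

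Over the first 4 weeks of free feeding, 81 probe sets were higher and 32 lower at adjusted p below 0.05 (limma's moderated test with Benjamini-Hochberg adjustment). These are 0.357% and 0.141% of the probe sets tested, 0.498% in all, with 2184 (9.63%) at unadjusted p below 0.05. The called probe sets with 1 gene symbol named 46 genes that rose and 13 that fell. A further 32 of the called probe sets had no single symbol. The median difference of all tested probe sets was -0.02. Of the called probe sets, 79 of 81 were higher in 5 of 5 dogs and 29 of 32 were lower in 5 of 5, against a background of 4.95% and 3.77% of all tested. The week-4 arrays lay wholly above the week-0 arrays for 68 of the 81 (background 1.54%) and wholly below for 27 of the 32 (background 0.784%). These probe sets were called on the same arrays, so nothing further is read from those shares. With the muscle mean as a covariate, 98 of the 113 were past the adjusted threshold.

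The count of 113 changed when 1 dog was left out. Leaving out dog 2 gave 30, dog 5 gave 23, dog 6 gave 37, dog 7 gave 27 and dog 8 gave 1966. Leaving out control dog 9, whose arrays are part of the shared fit, gave 63. The count was 40 without the arrays that carried muscle, 24 of them among the 113, and AZGP1, FMOD, SLC46A2, EPHX1, GPLD1, PTH1R, THBS4, COL4A2, PDK4, LOC489231 and PFKFB1 were the named genes past the threshold. That fit kept only dogs 2 and 6 at week 0 among ad libitum dogs, both in batch 2, which held no ad libitum week-4 array. Its differences thus rest on the fitted batch correction. With the dog as a fixed replicate block the count was 195 over all 45 arrays, where NID1, JARID2 and ACER2 lost their calls (limma adjusted p = 0.0604, 0.0565 and 0.0527). In a paired fit of the 10 arrays alone, with 4 residual degrees of freedom, it was 15, and AZGP1, EPHX1, GPLD1, AGMO and THBS4 were the named genes past the threshold. The week-0 value of dog 8 lay nearest to the week-4 levels for many genes described below. These included GPLD1, LEP, LOC489231, PDK4, PFKFB1, EPHX1, BLVRB, PTH1R, IGSF1, GABBR2, THBS4 and NID1. For AGMO, PSAT1 and CHEK2 it lay farthest from them. Laboratory batches 3 and 4 held arrays of both weeks, and 111 of the 113, chosen on arrays that include these, had the same sign within both. The week-0 array was that of dog 5 alone in batch 3 and that of dog 8 alone in batch 4. Dogs 2 and 6 had their week-0 arrays in batch 2 and dog 7 in batch 1, which held no ad libitum week-4 arrays. Only dog 5 had both arrays in the same batch, so week and batch are largely confounded. A difference below is the fitted one, corrected for batch, and can differ from the plain difference of means. For LEP the fitted difference was 2.99 and the plain one 3.52.

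Genes of 3 secreted proteins of fat, AZGP1, GPLD1 and LEP, rose. AZGP1, zinc-alpha-2-glycoprotein, a secreted protein linked to lipid mobilisation, was at 6.98, 7.88, 7.70, 8.57 and 10.17 at week 4 in dogs 2, 5, 6, 7 and 8, against 2.32, 2.32, 2.30, 2.22 and 2.37 at week 0. Its transcript was thus at background in every dog before free feeding and well above it in every dog 4 weeks later. The fitted log2 difference was 6.04 (SE 0.765, limma adjusted p = 8.40e-05), which is the smallest p of all tested probe sets, and its size is inexact because week 0 lies at background. The other tested AZGP1 probe set, which barely passes the detection limit, differed by 0.95 in the same direction and was not called (limma adjusted p = 0.508). GPLD1, a secreted phospholipase that frees GPI-anchored proteins from membranes, stood at 8.73, 9.30, 10.04, 8.34 and 9.90 at week 4, against 5.09, 5.08, 5.40, 5.05 and 6.46 at week 0. It rose 13.7-fold (log2 3.78, SE 0.567, limma adjusted p = 5.69e-04), and the groups did not overlap. Of the 3 tested GPLD1 probe sets, all higher, 2 were called.

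LEP, which encodes leptin, reached nearly the same level in all 5 dogs. It was at 11.92, 12.37, 12.23, 12.26 and 11.86 at week 4, against 7.72, 8.33, 8.70, 7.81 and 10.48 at week 0. The spread between dogs was 0.22 (SD) at week 4 and 1.12 at week 0, and dog 8, which began highest, changed least. The rise was 7.96-fold (log2 2.99, SE 0.730), and its limma adjusted p of 0.0498 lies at the threshold. Without dog 8 that p was 0.0137, and without dogs 2, 5, 6 or 7 it was 0.286, 0.368, 0.126 or 0.322. Without control dogs 1, 4 or 9 it was 0.0502, 0.0625 or 0.0979. In all, 3 of 12 measured adipokines rose, against 0.357% of all tested probe sets, and 0 fell, with a list median of 0.51. The 3 were AZGP1, GPLD1 and LEP. The list, like every list below, was chosen with earlier results of these data known, so such counts are not independent evidence. ADIPOQ, which encodes the insulin-sensitising hormone adiponectin, was among the brightest transcripts and stood at 15.40 ± 0.12 at week 4 and 15.62 ± 0.07 at week 0 (SD, n = 5). It was slightly lower in 5 of 5 dogs, but the difference of -0.38 was not past the threshold (limma adjusted p = 0.567). RBP4, the retinol carrier, had 0.41 and was not past it either (limma adjusted p = 0.217).

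**Figure D2:**
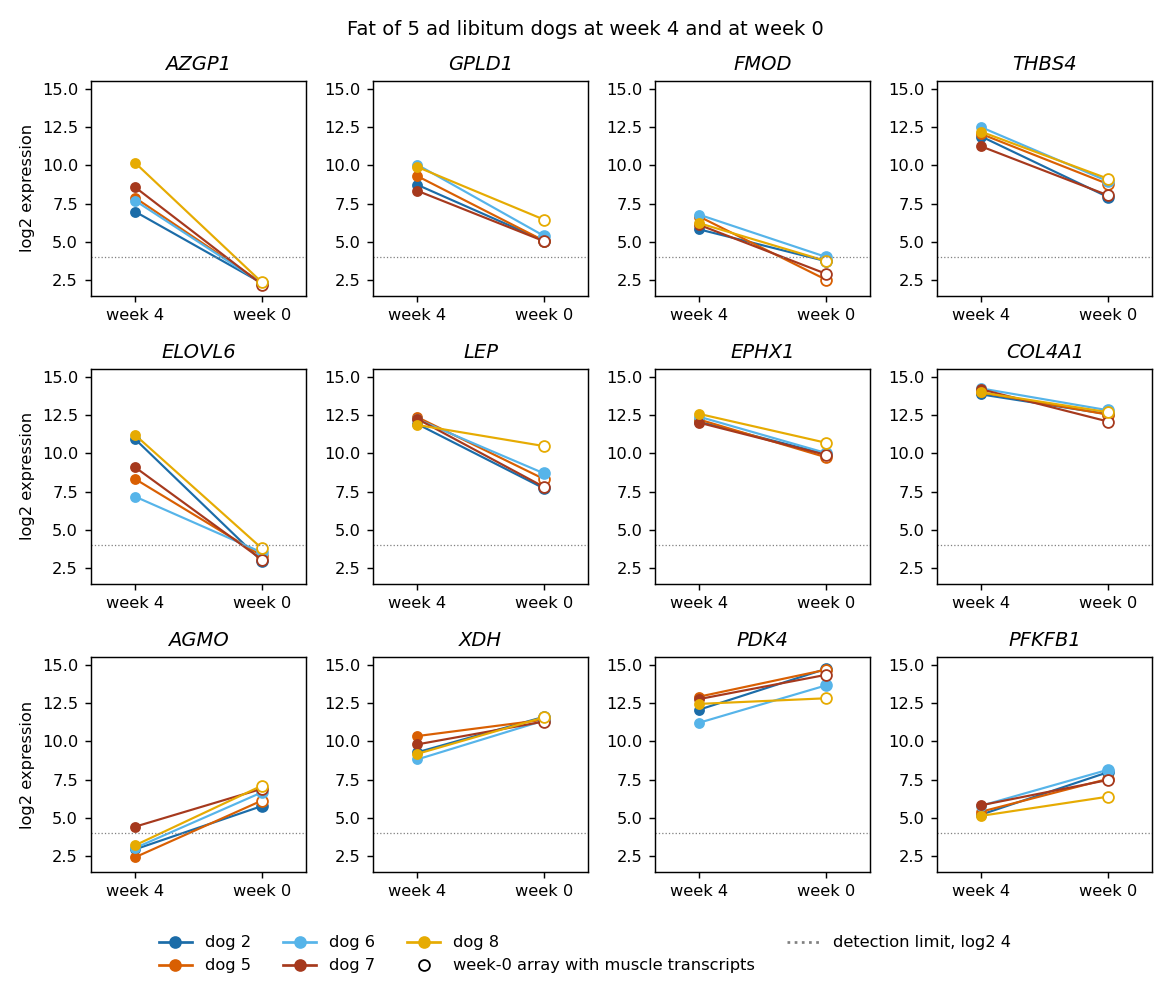
Log2 expression of 12 genes in each ad libitum dog at week 4 and week 0; each line joins the arrays of 1 dog, open points are week-0 arrays that carried muscle transcripts, and the dotted line is the detection limit of 4. AZGP1 lies between 2.22 and 2.37 in all dogs at week 0 and between 6.98 and 10.17 at week 4, and LEP lies between 11.86 and 12.37 at week 4.

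Among enzymes of fatty acid synthesis, ELOVL6 was the 1 of 19 measured genes that rose, against 0.357% of all tested probe sets, and 0 fell. ELOVL6 lengthens newly made palmitate on the way to stearate and oleate. It was at 10.93, 8.33, 7.18, 9.10 and 11.20 at week 4, against 2.97, 3.32, 3.54, 3.07 and 3.81 at week 0. The gene was below the detection limit in every dog before free feeding and above it in every dog at week 4, at levels that differed widely between dogs. The difference was 5.84 (SE 1.25, limma adjusted p = 0.0189), with a size that is inexact for the same reason as for AZGP1. The call was lost without dog 2 (limma adjusted p = 0.167), dog 5 (0.0945) or dog 7 (0.0638). The list median was 0.36 in ad libitum dogs, against -0.02 for all tested probe sets, and 0.87 in control dogs over the same weeks.

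Other enzymes of the pathway did not pass the test. FASN, which makes palmitate, was at 13.43, 12.95, 13.63, 13.28 and 13.15 at week 4, against 13.31, 13.27, 13.34, 12.96 and 13.83 at week 0, a difference of -0.15 (limma adjusted p = 0.974) that was 0.25 without the arrays with muscle. SCD, which desaturates fatty acids, was near the top of the array's range at 16.30 ± 0.10 at week 4 and 15.97 ± 0.15 at week 0 (SD, n = 5), with 0.27 (limma adjusted p = 0.605). PGD, which supplies NADPH for the pathway, came nearest to a call. It lay at 14.05 to 14.35 at week 4 and 12.95 to 13.90 at week 0, and its difference of 0.88 had a limma adjusted p of 0.061. ACACA, SREBF1, MLXIPL and THRSP, which encode the first committed enzyme and regulators of the pathway, had differences of -0.72, -0.60, -0.48 and -0.75, none past the threshold. Of 16 measured genes of cholesterol synthesis and uptake, limma called 0 (0.498% of all tested probe sets were called), with a median of 0.33 in ad libitum and 0.50 in control dogs. INSIG1, which holds SREBP in the endoplasmic reticulum when sterols suffice, had 0.97 in ad libitum dogs (limma adjusted p = 0.596) and 1.94 in controls (limma adjusted p = 0.107).

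COL4A1, COL4A2 and NID1, all of the basement membrane, rose. Of 28 measured genes of collagens and extracellular matrix, these 3 rose (0.357% of all tested probe sets did) and 0 fell, 23 had positive differences, and the median was 0.42, against -0.02 for all tested probe sets and -0.13 for the same list in control dogs. This list too was chosen with earlier results of these data known, so its count is not independent evidence. As plain differences, the list median was 0.21 in dogs 2 and 6 and 0.68 in dogs 5, 7 and 8, whose week-0 arrays carried muscle, and the part of muscle in it was not tested beyond the covariate, with which it was 0.37. COL4A1, a chain of collagen IV, was at 13.85, 13.98, 14.24, 14.18 and 13.98 at week 4, against 12.56, 12.53, 12.81, 12.08 and 12.69 at week 0. It rose 2.57-fold (log2 1.36, SE 0.215, limma adjusted p = 6.94e-04), and its 3 tested probe sets were all called, the brightest with 0.92. COL4A2, its partner chain, was at 14.64, 14.77, 15.10, 14.67 and 14.63 at week 4, against 13.95, 13.79, 14.06, 13.30 and 14.03 at week 0, a 1.85-fold rise (limma adjusted p = 0.00918). For both chains the lowest week-4 array lay above the highest week-0 array. NID1, nidogen, which ties collagen IV to laminin, averaged 10.67 ± 0.25 at week 4 and 9.21 ± 0.52 at week 0 (SD, n = 5), with a difference of 1.14 (limma adjusted p = 0.0433, and 0.0604 with the dog as a fixed replicate block). The other NID1 probe set had 0.85 and was not called. In control dogs, unlike the median of the list, the fitted differences of COL4A1, COL4A2 and NID1 were also positive. They were 0.70 for COL4A1 (0.59 at its brightest probe set), 0.64 for COL4A2 and 0.39 for NID1, none of them called.

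FMOD and THBS4, matrix genes outside that list, changed more. FMOD encodes fibromodulin, a small proteoglycan that binds collagen fibrils. It was at 5.82, 6.65, 6.78, 6.11 and 6.22 at week 4, against 3.75, 2.54, 4.02, 2.92 and 3.76 at week 0, with a difference of 3.09 (SE 0.427, limma adjusted p = 2.82e-04) and a week-0 mean below the detection limit. THBS4, a thrombospondin of the matrix, stood at 11.88, 12.04, 12.48, 11.23 and 12.19 at week 4, against 7.92, 8.78, 8.96, 8.04 and 9.12 at week 0, a 12.2-fold rise (limma adjusted p = 0.00181). Neither gene's week-4 arrays overlapped its week-0 arrays. Fibrillar collagens were not called. COL3A1 lay at 15.75 to 15.99 at week 4 and 14.14 to 15.43 at week 0 (1.07, limma adjusted p = 0.287), and COL1A1 had 0.40 (limma adjusted p = 0.803). LOX, which cross-links collagen, was higher in 5 of 5 dogs, at 6.11 to 8.27 at week 4 and 3.77 to 5.34 at week 0, but its difference of 2.97 had an SE of 0.857 and a limma adjusted p of 0.112. THBS2 (-0.95) and COL12A1 (-1.07) were lower in 5 of 5 dogs and were not called. Markers of fibroblasts had a median of 0.09, with 0 of 17 called (0.498% of all tested probe sets were called).

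Receptors and a growth factor were also among the genes that rose. PTH1R, the receptor for parathyroid hormone and its related peptide, was at 8.87, 9.79, 10.41, 9.79 and 9.00 at week 4, against 6.49, 6.80, 6.77, 6.43 and 7.45 at week 0, a 5.60-fold rise (limma adjusted p = 0.00150) with no overlap. IGF1, the growth factor that fat and liver make under growth hormone, was at 10.81, 11.84, 10.53, 10.94 and 11.35 at week 4, against 8.89, 10.01, 8.55, 9.56 and 9.23 at week 0. It rose 2.93-fold (SE of the log2 difference 0.365, limma adjusted p = 0.0381), higher in 5 of 5 dogs. The other IGF1 probe set had 1.26 and was not called. IGF1 was the 1 called gene of 14 measured in the growth hormone and IGF axis, whose median was -0.18. Of all tested probe sets 0.498% were called, 0.357% as higher. IGFBP2, a binding protein of IGF1, was lower in 5 of 5 dogs, at 3.11 to 8.77 at week 4 and 5.68 to 9.81 at week 0, and was not called (-1.97, limma adjusted p = 0.613). GABBR2, a subunit of the GABA-B receptor, was at 9.02, 6.81, 9.57, 9.36 and 9.00 at week 4, against 6.13, 3.70, 6.23, 4.87 and 7.01 at week 0. Dog 5 was lowest at both weeks, so the groups overlapped although every dog rose by at least 1.99 (fitted 3.11, limma adjusted p = 0.0369). IGSF1, an immunoglobulin-domain membrane protein, rose as well (4.78, limma adjusted p = 0.0355), with a week-0 mean of 3.39.

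Several enzymes and transporters also rose. EPHX1, the microsomal epoxide hydrolase that detoxifies reactive epoxides, was at 12.06, 12.21, 12.39, 12.00 and 12.58 at week 4, against 9.95, 9.75, 10.03, 9.90 and 10.69 at week 0. It rose 4.50-fold (log2 2.17, SE 0.320, limma adjusted p = 5.08e-04), and its 3 tested probe sets gave 2.11 to 2.24. BLVRB, biliverdin reductase B of heme breakdown, averaged 12.57 ± 0.27 at week 4 and 10.46 ± 0.63 at week 0 (SD, n = 5), a 4.11-fold rise (limma adjusted p = 0.00209). ABCB6, a porphyrin transporter, averaged 9.60 ± 0.36 at week 4 and 8.17 ± 0.61 at week 0 (SD, n = 5), a 3.25-fold rise (limma adjusted p = 0.00473). Both genes were higher in 5 of 5 dogs. SLC46A2, a solute carrier, lay at 7.55 to 9.22 at week 4 and 5.34 to 6.53 at week 0, a 5.25-fold rise (limma adjusted p = 5.08e-04). TPRG1 lay at 7.63 to 9.14 at week 4 and 4.05 to 5.09 at week 0 (3.36, limma adjusted p = 0.00550). LOC489231 (3.71, limma adjusted p = 0.0240) and SLC35G2 (1.40, limma adjusted p = 0.0235) complete the named genes that rose. SLC35G2 was higher in 4 of 5 dogs and had a week-0 mean of 3.33. For LOC489231 the week-0 value of dog 8, 8.52, lay near its own week-4 value of 9.78, whereas the other dogs began at 4.32 to 5.91.

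PDK4, PFKFB1, TXNIP and KLF11 were among the genes that fell. PDK4, the kinase that shuts off pyruvate dehydrogenase so that fatty acids rather than glucose are burned, was at 12.08, 12.93, 11.22, 12.77 and 12.45 at week 4, against 14.74, 14.68, 13.66, 14.35 and 12.82 at week 0. It was lower in every dog, least in dog 8, whose low week-0 array made the groups overlap. PDK4 fell to 0.308 times the week-0 level (log2 -1.70, SE 0.333, limma adjusted p = 0.00918), and its dimmer probe set had -2.82 (limma adjusted p = 0.0757). It was the 1 gene past the threshold of 17 measured for insulin signalling and glucose handling, whose median was -0.19. Of all tested probe sets 0.498% were past it, 0.141% as lower. PFKFB1, a bifunctional enzyme that sets the pace of glycolysis against gluconeogenesis, was at 5.23, 5.42, 5.81, 5.84 and 5.15 at week 4, against 8.00, 7.56, 8.16, 7.49 and 6.40 at week 0 (0.256 times, limma adjusted p = 0.0280), with no overlap. The brighter PFKFB1 probe set, with a mean of 10.22 over all arrays, had -1.69 and was not called. TXNIP, which binds thioredoxin and restrains glucose uptake, was at 14.29 to 14.64 at week 4 and 14.77 to 15.06 at week 0, lower in 5 of 5 dogs by 0.13 to 0.67 (fitted -0.51, SE 0.116, limma adjusted p = 0.0332). The other TXNIP probe set had -0.85 and was not called. KLF11, a transcription factor that responds to TGF-beta, was at 9.12, 9.99, 10.58, 10.74 and 9.73 at week 4, against 12.28, 11.46, 11.98, 11.95 and 11.24 at week 0 (0.356 times, limma adjusted p = 0.0145). PCK1, which supplies glycerol 3-phosphate for triglyceride in fasted fat, was at 10.64 in dog 2 and 13.65 to 14.52 in the other dogs at week 4, against 12.96 to 14.91 at week 0, and was not called (-1.01, limma adjusted p = 0.613).

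AGMO fell most. It encodes alkylglycerol monooxygenase, which cleaves ether lipids, and was at 2.96, 2.44, 3.05, 4.44 and 3.23 at week 4, against 5.79, 6.14, 6.68, 6.91 and 7.11 at week 0. The transcript thus fell below the detection limit in 4 of 5 dogs. The difference was -3.86 (SE 0.625, limma adjusted p = 9.47e-04), and the other AGMO probe sets, both called, had -3.03 and -2.42. XDH, xanthine dehydrogenase, the last enzyme of purine breakdown to uric acid, was at 9.29, 10.35, 8.83, 9.81 and 9.19 at week 4, against 11.61, 11.42, 11.36, 11.30 and 11.58 at week 0. It fell to 0.226 times the week-0 level (log2 -2.15, SE 0.505, limma adjusted p = 0.0381), with 2 of 3 probe sets called and all lower. PSAT1, an enzyme of serine synthesis, was at 9.99, 9.44, 9.71, 10.31 and 9.93 at week 4, against 11.52, 10.80, 11.67, 11.38 and 11.98 at week 0 (0.262 times, limma adjusted p = 0.0169). In each of these genes the highest week-4 array lay below the lowest week-0 array.

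The remaining genes that fell have no common role. EDN1, the precursor of the vasoconstrictor endothelin, averaged 8.62 ± 0.33 at week 4 and 10.17 ± 0.36 at week 0 (SD, n = 5), a fall to 0.297 times (limma adjusted p = 0.00964). ACER2, an alkaline ceramidase of the Golgi, averaged 5.34 ± 0.60 at week 4 and 7.03 ± 0.34 at week 0 (SD, n = 5), with -1.78 (limma adjusted p = 0.0433). CHEK2, a DNA damage checkpoint kinase, averaged 4.87 ± 0.35 at week 4 and 6.63 ± 0.58 at week 0 (SD, n = 5), with -1.92 (limma adjusted p = 0.0377). All 3 genes were lower in 5 of 5 dogs without overlap. JARID2, a subunit of Polycomb repressive complex, fell by 0.84 (limma adjusted p = 0.0369), CIAO2A, an assembly factor for iron-sulfur proteins, by 0.76 (limma adjusted p = 0.0498), and SIMC1 by 1.11 (limma adjusted p = 0.0424). Of the 3 tested JARID2 probe sets, all lower, 1 was called. SIMC1 was lower in 4 of 5 dogs, with a mean of 4.04 at week 4, close to the detection limit. Of the 34 named probe sets that passed, 9 passed without each of the 9 dogs in turn, namely those of AZGP1, FMOD, EPHX1, SLC46A2, GPLD1, COL4A1, AGMO, THBS4 and ABCB6. The other 25 lost the call without at least 1 dog, and leaving out dogs 2, 5, 6, 7 and 8 in turn left 13, 11, 15, 14 and 32 of the 34 past the threshold. Leaving out control dogs 1, 3, 4 and 9 in turn left 23, 25, 31 and 20.

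Lipolysis and lipid storage gave no call. Of all tested probe sets 0.498% were called, a share at which lists of this size would mostly hold none. Of 12 measured genes of lipolysis and its control, limma called 0, and the median was -0.53 in ad libitum dogs, against 0.68 in control dogs. HCAR2, the receptor through which beta-hydroxybutyrate and niacin inhibit lipolysis, was at 5.07, 4.28, 5.94, 6.00 and 4.26 at week 4, against 7.67, 6.43, 7.85, 7.51 and 8.83 at week 0. PRKAR2B, the regulatory subunit of protein kinase A that predominates in adipocytes, lay at 10.66 to 12.33 at week 4 and 12.47 to 13.35 at week 0. Both were lower in 5 of 5 dogs without overlap, yet their differences of -2.83 and -1.47 were not past the threshold (limma adjusted p = 0.159 and 0.160). The lipases had differences of -0.59 for PNPLA2, which removes the first fatty acid from triglyceride, and 0.15 for LIPE, hormone-sensitive lipase. LPL, which frees fatty acids from circulating lipoproteins, had -0.38, and PPARG, the master regulator of adipocytes, -0.12. None of these 4 was past the threshold (limma adjusted p = 0.722 to 0.969), and LIPE, LPL and PPARG changed sign under other settings. Genes of fatty acid uptake (median -0.38, 0 of 12 called), triglyceride assembly and lipid droplets (-0.03, 0 of 21) and adipocyte transcription factors (-0.26, 0 of 10) complete the group.

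**Figure D3:**
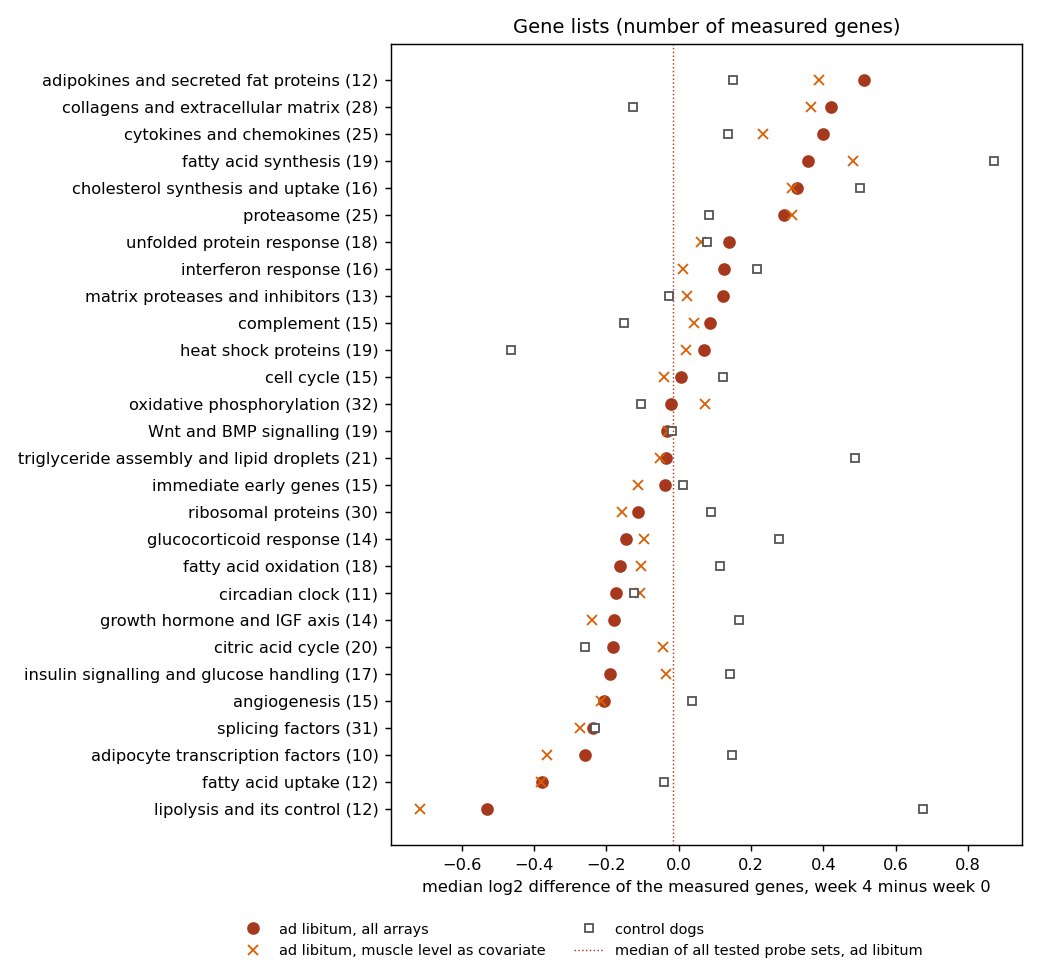
Median log2 difference (week 4 minus week 0) of the measured genes of each pathway list with at least 10 of them, for ad libitum dogs with all arrays, for ad libitum dogs with the muscle mean as a covariate, and for control dogs. The medians for ad libitum dogs run from -0.53 for lipolysis to 0.51 for adipokines, and the dotted line marks -0.02, the median of all tested probe sets.

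Inflammatory, mitochondrial and clock genes gave no call either. The same share, 0.498% of all tested probe sets, is the background for each of these lists. Of 25 measured cytokines and chemokines limma called 0, with a fitted median of 0.40. As plain differences the median was 0.21, with 0.39 in dogs 2 and 6 and 0.06 in dogs 5, 7 and 8. CCL2, a chemokine that draws monocytes, was at 12.90 in dog 2 at week 4 and at 7.06 to 9.06 in the other 4 dogs, against 6.62 to 8.97 at week 0, so that its difference of 1.79 came with an SE of 0.909 (limma adjusted p = 0.547). CCL8 (2.01, limma adjusted p = 0.361) and CCL19 (2.41, limma adjusted p = 0.224) were higher in 5 of 5 dogs and were not past the threshold. The 10 measured markers of T and NK cells were all positive in the fit (median 0.53), with 0 called. As plain differences their median was 0.23, with 0.72 in dogs 2 and 6 and -0.09 in dogs 5, 7 and 8. Macrophage markers had a median of 0.01 (0 of 17 called), and CD68 stood at -0.32 (limma adjusted p = 0.949). Oxidative phosphorylation (32 genes), the citric acid cycle (20) and fatty acid oxidation (18) had medians of -0.02, -0.18 and -0.16 with 0 called. Differences were negative for 29 of 30 ribosomal protein genes (median -0.11) and positive for 21 of 25 proteasome genes (median 0.29), with 0 called in either list. Limma also called 0 among splicing factors (median -0.24, 28 of 31 negative), angiogenesis (-0.21), glucocorticoid response (-0.15), interferon response (0.12), complement (0.09), heat shock proteins (0.07) and cell cycle (0.01). The clock genes PER2 (-0.61) and ARNTL (0.49) were not past the threshold (limma adjusted p = 0.291 and 0.876), and ARNTL was -0.035 without the arrays with muscle.

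Control dogs were sampled over the same 4 weeks without free feeding. In them limma called 1 probe set (0.00441% of those tested). At unadjusted p below 0.05 there were 5470 of 22690, more than the 2184 (9.63%) in ad libitum dogs. The 4 week-4 arrays of control dogs lay in batches 1 and 2 only, and none of these 4 carried muscle, against 2 of 4 at week 0. AZGP1 was at background in control dogs at both weeks, with 2.35 ± 0.02 at week 4 and 2.34 ± 0.01 at week 0 (SD, n = 4). The fitted control differences of ABCB6 (-0.05), EDN1 (0.00), KLF11 (-0.11), PFKFB1 (-0.03) and TXNIP (0.03) were near 0. That of THBS4 was 0.24, but the plain changes of control dogs 1, 3, 4 and 9 were 2.50, 0.16, 0.10 and -1.66. EPHX1 differed by 2.17 in ad libitum and 1.05 in control dogs, PTH1R by 2.49 in ad libitum and 1.45 in control dogs, and LOC489231 by 3.71 in ad libitum and 2.20 in control dogs. IGSF1 differed by 4.78 in ad libitum and 1.88 in control dogs, where dog 1 changed by 6.60 and the other 3 dogs by -0.25 to -0.10. These 4 control differences were not called. Nor were those of GPLD1 (1.03), GABBR2 (1.27), SLC46A2 (1.00) and BLVRB (0.80), against 3.78, 3.11, 2.39 and 2.04 in ad libitum dogs. TPRG1 differed by 3.36 in ad libitum and 2.82 in control dogs, COL4A2 by 0.89 in ad libitum and 0.64 in control dogs, and PDK4 by -1.70 in ad libitum and -1.09 in control dogs. LEP differed by 2.99 in ad libitum and 1.06 in control dogs, with single control dogs between -0.81 and 2.22.

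The difference between the 2 changes was tested as an interaction. At week 4 the control arrays lay in batches 1 and 2 and the ad libitum arrays in batches 3, 4 and 5. The feeding groups thus shared no batch at week 4, and the interaction rests on the fitted batch correction. Limma called 0 of 22690 probe sets (smallest adjusted p 0.111; 1773, or 7.81%, at unadjusted p below 0.05). Of the 113 probe sets called in ad libitum dogs, 69 had an unadjusted p below 0.05 in the interaction, which contains the same ad libitum change they were chosen for. The change in ad libitum dogs exceeded that in control dogs by 6.03 for AZGP1 (limma adjusted p = 0.113) and by 3.37 for THBS4 (limma adjusted p = 0.474), and the same difference was -4.77 for AGMO and -1.50 for JARID2 (limma adjusted p = 0.113 each). For TPRG1, COL4A2 and PDK4 the excess was 0.54, 0.25 and -0.61, with unadjusted limma p of 0.574, 0.360 and 0.247. ASAP1 and KIAA1958, named for this test alone, had -1.48 and -1.69 (limma adjusted p = 0.113 each) and were not called in ad libitum dogs. ASAP1 differed by -0.61 in ad libitum and 0.87 in control dogs. KIAA1958 differed by -0.36 in ad libitum and 1.33 in control dogs. Its ad libitum means, 2.66 at week 4 and 3.16 at week 0, lay below the detection limit. LOC489640, also named for the interaction, had 4.85 (limma adjusted p = 0.428), with 3.12 within ad libitum dogs (limma adjusted p = 0.0716) and -1.73 in control dogs.

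**Figure D4:**
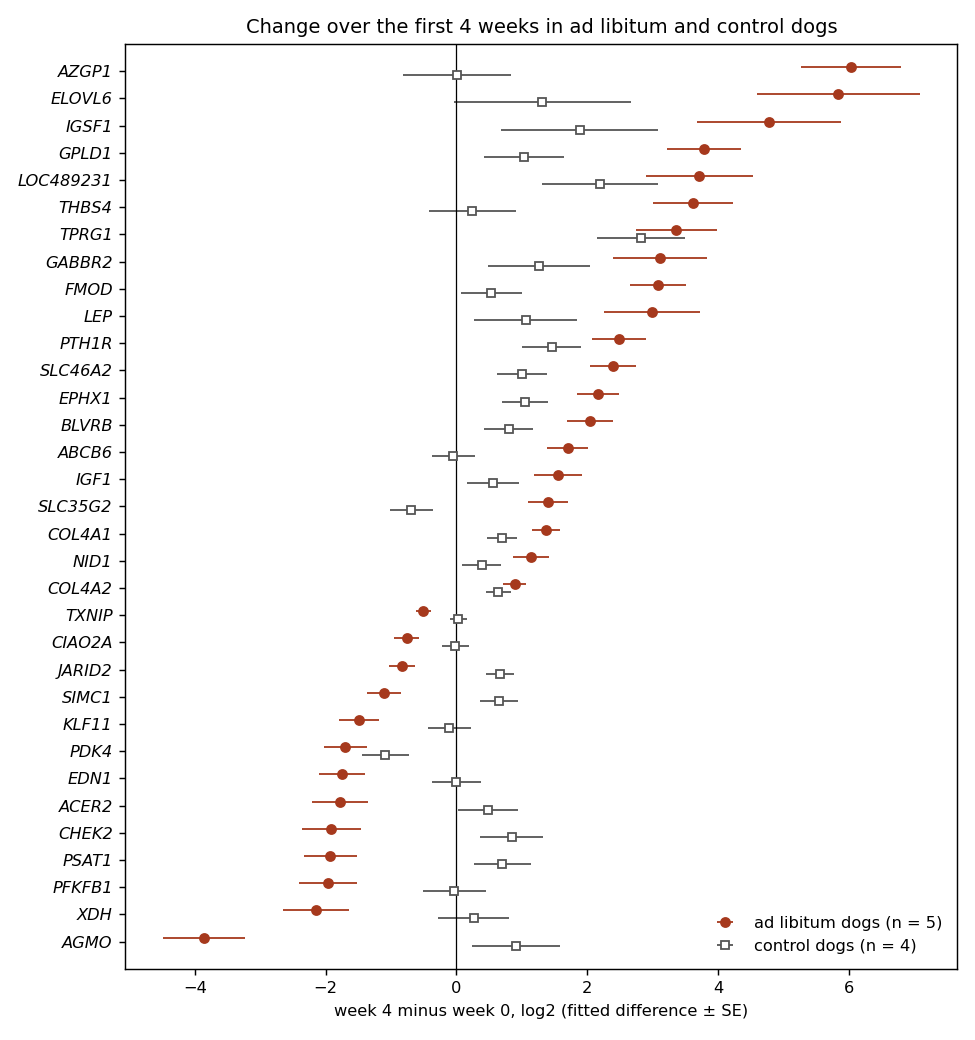
Fitted log2 difference (week 4 minus week 0) with its SE for each named gene past the threshold, in ad libitum dogs (filled points, n = 5) and control dogs (open squares, n = 4). AZGP1 stands at 6.04 in ad libitum and 0.01 in control dogs, whereas TPRG1 stands at 3.36 and 2.82.

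Levels at later weeks differed from gene to gene. Each later difference is taken against the same 5 week-0 arrays, so the values are not independent of those at week 4, and all week-24 arrays formed 1 batch of their own. AZGP1 in ad libitum dogs was at 2.31 ± 0.05, 8.26 ± 1.21, 6.72 ± 2.60, 7.73 ± 0.89 and 2.37 ± 0.06 at weeks 0, 4, 8, 12 and 24 (SD, n = 5 each). It was thus at background again at week 24. In control dogs AZGP1 was at 2.38 ± 0.06, 2.36 ± 0.05 and 3.18 ± 1.69 at weeks 8, 12 and 24 (SD, n = 4 each). Its spread between control dogs was thus wide at week 24. GPLD1 differed from week 0 by 3.78, 2.42, 2.42 and 0.46 at weeks 4, 8, 12 and 24, EPHX1 by 2.17, 1.33, 1.55 and 0.50, FMOD by 3.09, 1.80, 1.65 and 0.85, and PDK4 by -1.70, -1.29, -1.40 and 0.13. For these 4 genes the week-24 difference was not past the threshold (limma adjusted p = 0.211 to 0.835). Within the week-24 batch, EPHX1 was at 10.66 ± 0.52 in ad libitum and 9.75 ± 0.33 in control dogs (SD, n = 5 and 4). GPLD1 was at 6.13 ± 0.89 in ad libitum and 5.13 ± 0.16 in control dogs, FMOD at 4.26 ± 0.37 and 4.17 ± 0.56, and PDK4 at 14.07 ± 0.097 and 14.10 ± 0.21. The feeding groups were not tested against each other at that week. LEP differed by 2.99, 3.39, 2.61 and 3.53, ELOVL6 by 5.84, 3.92, 5.02 and 4.29, AGMO by -3.86, -2.53, -3.57 and -3.56, XDH by -2.15, -1.81, -1.89 and -2.45 and PSAT1 by -1.93, -1.08, -2.13 and -1.83. These 5 genes were past the threshold at week 24 (limma adjusted p = 6.16e-04 to 0.0304). At week 24, in that same batch, AGMO was at 3.12 ± 0.69 in ad libitum and 2.98 ± 0.66 in control dogs (SD, n = 5 and 4). PSAT1 was at 9.75 ± 0.36 in ad libitum and 9.73 ± 0.73 in control dogs, and XDH at 8.97 ± 0.65 in ad libitum and 9.73 ± 1.09 in control dogs. At week 0 the control dogs had 5.21 ± 1.58 for AGMO, 11.15 ± 0.95 for PSAT1 and 10.96 ± 0.53 for XDH, so the means of all 3 genes were also lower at week 24 in control dogs, a difference that was not tested apart from that batch.

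**Figure D5:**
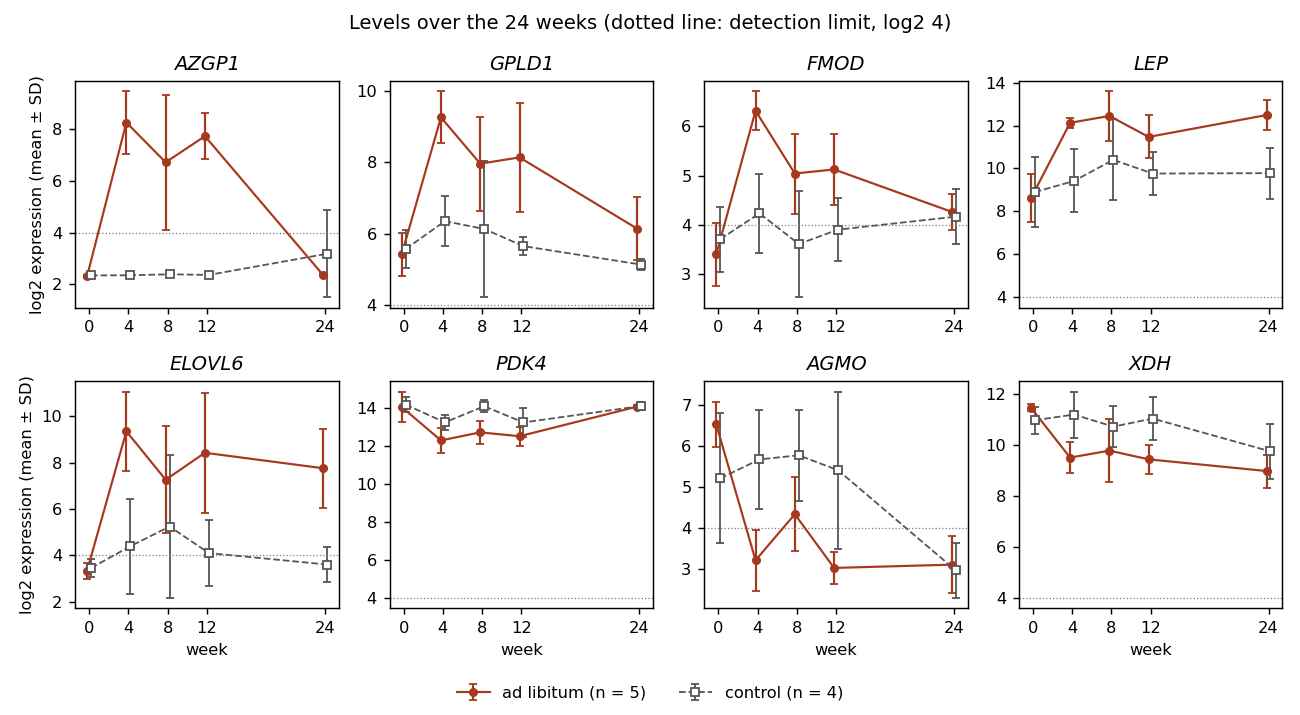
Mean log2 expression with SD of 8 genes at weeks 0, 4, 8, 12 and 24 in ad libitum dogs (filled points, n = 5) and control dogs (open squares, n = 4); the dotted line is the detection limit of 4, and each panel has its own scale. AZGP1 in ad libitum dogs stands at 8.26 at week 4 and 2.37 at week 24, whereas LEP in these dogs has means between 11.5 and 12.5 from week 4 on.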

How the data were processed

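The values deposited by the authors are 1 expression value per probe set and array, read here as log2 because they ran from 0.42 to 17.51; the submitters' processing notes name GCRMA. Its version and the log base were not given in the sources used here. No array was left out of the fit described here, and 0 columns of unknown samples were present. The number of arrays limits the precision.

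Differences were fitted with limma 3.58.1 and statmod 1.5.0 (R 4.3.3) over all 45 arrays, which share 1 estimate of the spread. The model had 10 means, 1 per feeding group and week, the laboratory batch of the labels (batches 1 to 5; batch 6 held only week 24) and the dog as a random block (correlation 0.00562), leaving 31 residual degrees of freedom. P-values were adjusted by the Benjamini-Hochberg method over 22690 probe sets, with a threshold of 0.05. The replicates of a group were different dogs, with 1 array per dog and week, so p-values cover the spread between dogs and arrays together. Details of the extraction are not stated.

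The 5 pairs are the same animals per the labels. Deviations of a dog's 2 arrays from their group means correlated at 0.438, -0.13, 0.392, 0.0889 and -0.657 in dogs 2, 5, 6, 7 and 8. The highest correlation with another dog's array was 0.358, 0.23, 0.669, 0.182 and 0.653, above the dog's own in 4 of 5. Symbols came from the array's platform table: 16915 tested probe sets had 1 symbol (9113 genes), 271 several and 5504 none. Of the tested probe sets, 16015 had their gene in a RefSeq table, and 0 symbols needed an update.

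Named genes are up to 12 of each sign by size and up to 10 by p among those past the threshold, up to 3 called members of each list, 20 genes named in any case and up to 5 of each sign by p of the interaction with control dogs. Of those 20, UCP1 and DBP had no tested probe set with their symbol, and 1 gene is not reported here. The 42 gene lists (29 pathway, 13 cell type) use 1 probe set a gene, the one with the highest mean. The members and lists were chosen with earlier results of these data known. Alternatives changed the filter, batch term, block, arrays used, covariates, normalization and test settings, and left out each dog in turn. The identity of the week-8 arrays labelled dogs 5 and 9 was in doubt from earlier work on these data; they enter only through the shared fit, and a fit without them was run.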

Additional observations from a re-analysis of the deposited data

Results flagged for a closer look

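In 4 of 100 groups of 5 arrays 1 dog stood far from the other 4, where chance alone gives about 1 in 20. GPLD1 was at 6.46 in dog 8 at week 0, against 5.05 to 5.40 in the other dogs. COL4A1, at its brightest probe set, was at 12.97 in dog 7 at week 0, against 13.57 to 13.78 in the others. The week-0 array of dog 7 carried the most muscle transcripts, whose part in this value was not tested. GABBR2 was at 6.81 in dog 5 at week 4, against 9.00 to 9.57 in the others. PCK1 was at 10.64 in dog 2 at week 4, against 13.65 to 14.52 in the others. Without that dog the PCK1 difference was -0.19, against -1.01 with all dogs, and neither was past the threshold (limma adjusted p = 0.991 and 0.613).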

How the results depend on the processing

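The number of probe sets called over the first 4 weeks in ad libitum dogs, 113, moved under the 25 alternatives. It was 61 with no filter on low values, 293 without a batch term, 58 without the week-24 arrays, 40 without arrays with muscle transcripts and 9 in batches 3 and 4 alone, where 3 residual degrees of freedom remained and 0 of the 113 were past. With the dog as a fixed replicate block, which follows the pairing of the arrays, it was 195 over all arrays and 15 over the 10 arrays. The fit of the 10 arrays without a block called 85, that of all arrays without one 107. Leaving out 1 dog with all its arrays gave 23 to 1966, the highest without dog 8 (785 higher and 1181 lower). The remaining alternatives gave 88 to 158 (actin and muscle as covariates among them) or, without the week-8 arrays labelled dogs 5 and 9, 162. The interaction with control dogs called 4 without a batch term, 2 without those week-8 arrays and 0 to 2 with 1 dog left out, and 0 otherwise. The 34 named probe sets past the threshold were past it in 8 to 24 of 25 alternatives, none in all 25. The AZGP1 interaction was past it in 3 of 22, those of SLC35G2 and KIAA1958 in 1 of 21 each.

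Signs reversed for 5 genes that were not called. LPL was 0.018, LIPE -0.20 and PPARG 0.18 in batches 3 and 4 alone. PPARG was 0.097 without a batch term and in both fits of the 10 arrays. With 1 dog left out PPARG ran from -0.39 to 0.10, positive without dog 6, and LIPE from -0.058 to 0.44, negative without dog 5 or control dog 4. Without arrays with muscle ARNTL was -0.035 and FASN 0.25. The cause was not tested. Genes with a mean below 4 lie within the background of the array, which limits the size of their differences.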

Other observations

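The genes below also rose over the first 4 weeks of free feeding. They lie outside the naming rule and were chosen after their values were seen, so no theme is drawn from them. PYCR1, the last enzyme of proline synthesis, was at 7.99, 8.53, 8.04, 7.22 and 6.52 at week 4 in dogs 2, 5, 6, 7 and 8, against 6.02, 5.40, 5.83, 5.39 and 5.42 at week 0, a 5.22-fold rise (limma adjusted p = 0.00918). In control dogs its difference was 0.00. ADAMTS2, which trims the amino end of procollagen, was at 7.26, 7.64, 8.38, 7.68 and 6.93 at week 4, against 5.80, 5.17, 5.69, 4.87 and 6.47 at week 0 (3.69-fold, limma adjusted p = 0.0169). In both genes every week-4 array lay above every week-0 array. KDELR3, a receptor that returns proteins to the endoplasmic reticulum (1.24, limma adjusted p = 0.0132), COPZ2, a subunit of the COPI coat (1.29, limma adjusted p = 0.00964), and PRDX4, a peroxiredoxin of the endoplasmic reticulum (0.90, limma adjusted p = 0.00860), were also higher in 5 of 5 dogs. The list of the unfolded protein response had a median of 0.14, with 0 of 18 called (0.498% of all tested probe sets were called). SVEP1, a large matrix protein, was at 10.92, 11.10, 11.00, 11.22 and 11.38 at week 4, against 9.79, 9.72, 9.95, 9.48 and 9.21 at week 0. Its difference was 1.54 in ad libitum dogs (limma adjusted p = 0.00857) and 0.09 in control dogs.

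ITGA7 and HSPB2, which skeletal muscle also expresses, rose while the muscle list as a whole stood lower at week 4. ITGA7, an integrin chain that binds laminin, was at 12.16, 12.38, 12.90, 12.38 and 12.35 at week 4, against 10.48, 10.75, 10.44, 10.34 and 11.57 at week 0 (1.70, limma adjusted p = 0.0235; 1.77 with the muscle mean as a covariate). HSPB2, a small heat shock protein, was at 6.59, 7.65, 8.26, 6.87 and 7.06 at week 4, against 4.96, 5.49, 5.62, 6.84 and 5.89 at week 0 (1.90, limma adjusted p = 0.0405; 2.27 with that covariate). The highest week-0 value of HSPB2 was that of dog 7, whose array carried the most muscle transcripts.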
